A study of Anableps anableps with 8 samples.

Results

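The nuclei described here, chosen by their own opsin, cone and marker UMIs, were cones of the adult retina of Anableps anableps, the four-eyed fish, whose cone opsin transcripts came from opn1sw1, the short-wave sws1 opsin, and which carried transcripts of either tbx5 or VAX2. Whole retinas were processed to nuclei and sequenced for RNA nucleus by nucleus after combinatorial barcoding, without dissection into dorsal and ventral parts. No animal was treated, no genotype was given, and the design text stated 5 biological replicates behind 8 technical sublibraries of 1 pool. The gene-level matrix held 119839 barcodes, of which 6430 had at least 500 UMIs (unique molecular identifiers, a count of captured transcripts), under 2 retina names, called retina 1 and retina 2 here. Neither name could be tied to a label, so it was not known whether they were separate animals.

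A nucleus was called an sws1 cone with at least 2 cone opsin UMIs of which at least 80% came from opn1sw1, and with at least 3 UMIs summed over the cone genes GNAT2, PDE6C, CNGA3, cnga3a and grk7a, a sum that also had to exceed that of the rod genes GNAT1, PDE6A, PDE6B, cnga1a and saga. This gave 185 sws1 cones. The tbx5-marked nuclei had at least 1 UMI of tbx5a or tbx5b and none of VAX2, and numbered 25, with 11 in retina 1 and 14 in retina 2. The VAX2-marked nuclei had at least 1 UMI of VAX2 and none of either tbx5 gene, and numbered 67, with 31 in retina 1 and 36 in retina 2. A further 27 sws1 cones had both markers and 66 had neither.

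In vertebrate eyes the T-box factor Tbx5 marks the dorsal retina and the homeobox factor Vax2 the ventral retina. They act on opposite sides of a dorsoventral axis that patterns, among others, the EphB receptors and ephrin-B ligands that guide retinal axons. The sws1 opsin is the ultraviolet- or violet-sensitive pigment of fish single cones. Here the markers stand for a position that was not itself measured.

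The marker and gate genes chose the nuclei, so their values are a description. Among the arms, tbx5b gave all the tbx5 UMIs, 23 and 39 in the tbx5-marked sums of retina 1 and retina 2. The paralog tbx5a was at 0 in both arms and reached 36.8 CPM (counts per 1000000 UMIs) in the double-marked nuclei. VAX2 gave 161 and 111 UMIs in the VAX2-marked sums. The marker threshold was a low one: 10 of the 25 tbx5-marked nuclei had exactly 1 tbx5 UMI, and 19 of the 67 VAX2-marked nuclei exactly 1 VAX2 UMI. At the opsin threshold, 12 members of the 185 had an sws1 share from 80% to under 90%, 34 had exactly 2 opsin UMIs, 47 cones just outside had a share from 50% to under 80%, and 22 just outside had 1 opsin UMI, from opn1sw1. The opn1sw1 level was 688 CPM in tbx5-marked and 793 CPM in VAX2-marked nuclei. All cone opsin UMIs came from opn1sw1 in 24 of 25 tbx5-marked and 62 of 67 VAX2-marked nuclei, a share that the gate itself had required to be at least 80%. GNAT2, the cone transducin subunit, was at 734 CPM in tbx5-marked and 385 CPM in VAX2-marked nuclei, and PDE6C, the cone phosphodiesterase, at 1024 CPM in tbx5-marked and 1105 CPM in VAX2-marked nuclei. VAX2 also had a UMI in 35.8% of 2239 rod nuclei (median depth 1960 UMIs), and tbx5b in 6.16% of them.

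The arms differed in depth. Median depth was 8194 UMIs per tbx5-marked nucleus, against 5869 per VAX2-marked nucleus, and the sums held 95557 and 118216 UMIs in the tbx5-marked arm and 229847 and 263403 UMIs in the VAX2-marked arm. The barcode names carried s1 or s2, read here as 2 sublibraries, which were tied to none of the 8 labelled ones. Sublibrary s1 held 8 of the 25 tbx5-marked and 28 of the 67 VAX2-marked nuclei. The part of depth in the results was not tested beyond the values at equal depth given below.

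Counts were summed per arm and retina name, which gave 4 sums, and the arms were compared with edgeR's quasi-likelihood test with the retina name as a block. Of 4803 genes tested outside the gate, 366 passed an adjusted p of 0.05 (7.62%), 145 of them higher (3.02%) and 221 lower (4.6%) in tbx5-marked nuclei. The fit had 1 residual degree of freedom and drew its spread from all genes together. Differences in level between the 2 retina names were taken out by the block. These p-values thus measure only how the arm difference varied between the 2 names, a variation that may be technical. For a single value, an exact sign-flip test over 2 names could not go below a p of 0.5. Without the block 146 of 4803 genes passed and DESeq2 called 71 of 2379, and 6 of 1701 passed after each nucleus was thinned to 2000 UMIs. With at least 3 opsin UMIs and a share of at least 95% from opn1sw1, 19 tbx5-marked and 52 VAX2-marked nuclei were left. There 57 of 3771 genes passed.

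Part of the lower calls rested on single nuclei. In the VAX2-marked arm 2 barcodes, 1 in each retina, held 397 and 138 UMIs of markers of other retinal cell types, where no other member held more than 24, and their depths were 43047 and 20223 UMIs. Bipolar cell markers summed to 73.3 and 110 CPM in the tbx5-marked sums of retina 1 and retina 2, against 1122 and 554 CPM in the VAX2-marked sums, and to 268 and 239 CPM there without the 2 barcodes. Pigment epithelium markers were at 0 and 16.9 CPM in tbx5-marked sums, against 400 and 129 CPM in VAX2-marked sums, and at 5.35 and 0 CPM there without the 2 barcodes. Amacrine markers were at 0 for all 9 genes in the tbx5-marked sums and reached 30.5 and 41.8 CPM in the VAX2-marked sums. These rested on 7 and 11 UMIs, none from the 2 barcodes, and were at 37.5 and 45.2 CPM without them. Ganglion cell markers, also on few UMIs, were at 41.9 and 0 CPM in tbx5-marked sums, against 17.4 and 26.6 CPM in VAX2-marked sums. Rod markers summed to 450 and 677 CPM in tbx5-marked and 796 and 835 CPM in VAX2-marked sums. Without the 2 barcodes the rod markers were at 497.9 and 719.6 CPM in VAX2-marked sums, nearer the tbx5-marked level. Mueller glia markers in both VAX2-marked sums also fell without the 2 barcodes.

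All 15 named genes with the largest ratio on the VAX2 side were at 0 UMIs in tbx5-marked nuclei, and in 9 of them 1 nucleus held over 50% of the UMIs. They were led by matn3b, a matrix protein gene, with 0 and 0 UMIs in tbx5-marked sums against 159 and 124 in VAX2-marked sums, all from 4 nuclei. The same set included trpm1b, the channel of ON bipolar cells, OPN4, a melanopsin, and tyrp1b, a pigment cell enzyme. Without the 2 barcodes, 233 of 4341 genes passed (5.37%), 115 higher (2.65%) and 118 lower (2.72%). Of these, 220 were also among the 366, all with the same sign, and 112 of the 146 calls that were lost were lower in tbx5-marked nuclei. Of these 146 genes, 68 had too few UMIs left to be tested. Of the 15 named genes above, 7 could still be tested without the 2 barcodes, and all 7 passed. One of the 15, ATP7B, a copper transporter, was carried by many nuclei. It had 0 and 0 UMIs in tbx5-marked sums against 41 and 20 in VAX2-marked sums, from 20 of 67 nuclei.

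**Figure D1:**
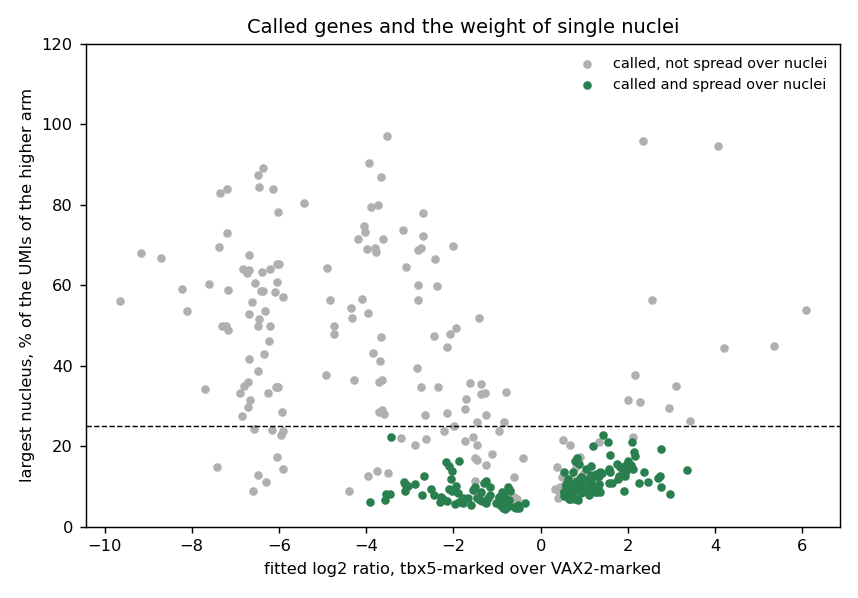
Each point is a gene that passed the arm test, with the fitted log2 ratio of tbx5-marked over VAX2-marked sws1 cones on the x axis and, on the y axis, the percentage of the higher arm's UMIs that came from its largest nucleus. Green points are the 169 genes spread over nuclei, the dashed line is their limit of 25%, and most grey points far to the left lie above it.

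Genes are therefore described below from a narrower set, defined after these values were seen. It holds the genes that passed the test with and without the 2 barcodes, had the same sign in each retina name, had a UMI in at least 1 of every 3 nuclei of the higher arm, and had no nucleus with over 25% of that arm's UMIs. There were 169 such genes (3.52% of those tested), 101 higher (2.1%) and 68 lower (1.42%) in tbx5-marked nuclei, and 59 and 48 of them differed by at least 1 log2 unit. In nuclei with few transcripts of other types, 19 tbx5-marked and 36 VAX2-marked, 161 of 2653 genes passed (6.07%), 89 higher (3.35%) and 72 lower (2.71%). There 168 of the 169 could be tested, all 168 kept their sign and 111 passed again. These nuclei are a subset of those from which the genes were chosen, which favours this agreement, so it is no independent support. The 15 named genes with the largest ratios on each side are called the leading genes.

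Among genes higher in tbx5-marked nuclei, ROBO1 (ENSABLG00000003787), a receptor for Slit guidance cues, had the largest ratio of the leading genes. It had 139 and 60 UMIs in the tbx5-marked sums of retina 1 and retina 2, against 28 and 17 UMIs in the VAX2-marked sums, from 21 of 25 against 8 of 67 nuclei. The difference was 3.35 ± 0.28 on the log2 scale (fitted ratio ± approximate SE, n = 2 sums per arm, edgeR adjusted p = 8.6e-29), and the level in retina 1 was well above that in retina 2 in both arms. SGSM2, a regulator of Rab GTPases, had 61 and 99 UMIs in tbx5-marked sums against 23 and 32 in VAX2-marked sums. It was detected in all 25 tbx5-marked nuclei and in 9 of 67 VAX2-marked nuclei, with a log2 ratio of 2.75 ± 0.29 (adjusted p = 3.6e-18). The VAX2-marked UMIs of SGSM2 thus came from few nuclei, the largest of which held 15.

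SH2B2, an adaptor of receptor tyrosine kinases, had 48 and 49 UMIs in tbx5-marked sums against 7 and 23 in VAX2-marked sums (log2 ratio 2.97 ± 0.39, adjusted p = 6.4e-12). The gene dab1a, which encodes an adaptor of the reelin pathway, had 40 and 92 UMIs in tbx5-marked sums against 24 and 21 in VAX2-marked sums (2.70 ± 0.33, adjusted p = 6.7e-14). In each of these genes the lower tbx5-marked CPM exceeded the higher VAX2-marked CPM, which choosing genes by the largest ratios favours.

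The cone channel subunit gene cngb3.2 had 74 and 118 UMIs in tbx5-marked sums against 42 and 51 in VAX2-marked sums, and was detected in 25 of 25 against 18 of 67 nuclei (2.25 ± 0.25, adjusted p = 5.8e-17). This gene belongs to the cyclic nucleotide-gated channel that closes in light, and it was not part of the gate. The partner subunit CNGA3, which was in the gate, was at 234 CPM in tbx5-marked and 219 CPM in VAX2-marked nuclei.

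ANK3, MYH10 and irs2b were detected in all 25 tbx5-marked nuclei and in 52, 29 and 37 of the 67 VAX2-marked nuclei. ANK3, the ankyrin G scaffold, had 209 and 222 UMIs in tbx5-marked sums against 119 and 152 in VAX2-marked sums (1.91 ± 0.16, adjusted p = 1.5e-28). MYH10 (ENSABLG00000010582), a nonmuscle myosin heavy chain, had 112 and 148 UMIs in tbx5-marked sums against 66 and 75 in VAX2-marked sums (2.11 ± 0.21, adjusted p = 4.2e-21). The insulin receptor substrate gene irs2b had 84 and 115 UMIs in tbx5-marked sums against 60 and 61 in VAX2-marked sums (1.94 ± 0.23, adjusted p = 2.9e-14). The other leading genes on this side were PXYLP1, TMEM91, gsg1l2b, camk2d2 (ENSABLG00000021859), tmem237a, SRC (ENSABLG00000004889) and ANGPT1 (ENSABLG00000008870), with log2 ratios from 1.95 to 2.77. Among these, SRC and ANGPT1 kept their direction but lost their calls with DESeq2, with no block and in nuclei with few transcripts of other types.

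**Figure D2:**
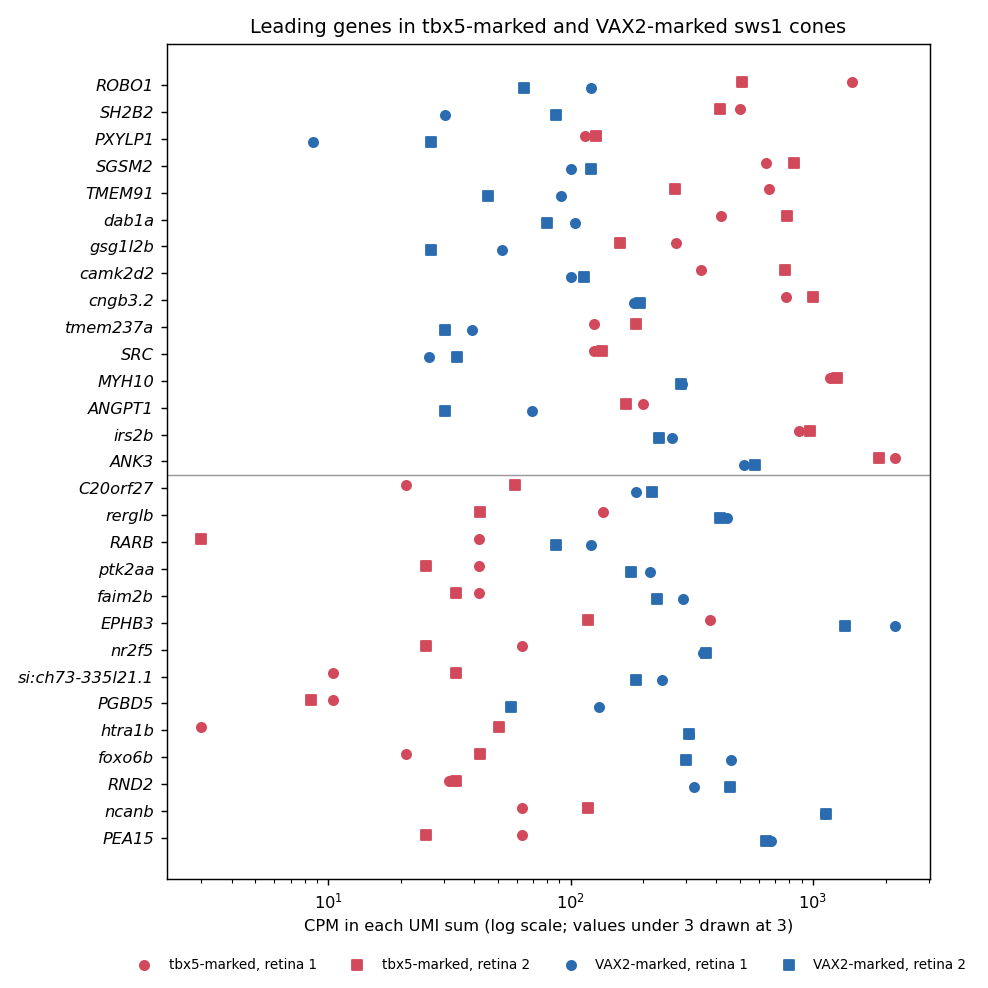
CPM on a log axis of 29 of the 30 leading genes in each of the 4 UMI sums, with tbx5-marked sums in red and VAX2-marked sums in blue, circles for retina 1 and squares for retina 2. The 15 genes above the line were higher in tbx5-marked nuclei and the 14 below it lower, and they were chosen for their large ratios in these same sums.

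On the VAX2 side, PEA15, a phosphoprotein that binds ERK kinases, had the largest ratio of the leading genes. It had 6 and 3 UMIs in the tbx5-marked sums against 155 and 169 UMIs in the VAX2-marked sums, from 6 of 25 and 53 of 67 nuclei (-3.91 ± 0.39, adjusted p = 1.7e-20). The gene ncanb (ENSABLG00000006131), for the chondroitin sulfate proteoglycan neurocan, had 6 and 14 UMIs in tbx5-marked sums against 259 and 298 in VAX2-marked sums (-3.57 ± 0.28, adjusted p = 1.1e-32). RND2 (ENSABLG00000021367), a small GTPase, had 3 and 4 UMIs in tbx5-marked sums against 74 and 120 in VAX2-marked sums (-3.53 ± 0.49, adjusted p = 6.8e-11). All 3 were low in both tbx5-marked sums and high in both VAX2-marked sums.

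A pair of transcription factors and a secreted protease followed. The forkhead factor foxo6b had 2 and 5 UMIs in tbx5-marked sums against 106 and 79 in VAX2-marked sums (-3.45 ± 0.49, adjusted p = 2.7e-10). The COUP factor nr2f5 had 6 and 3 UMIs in tbx5-marked sums against 81 and 95 in VAX2-marked sums (-3.03 ± 0.47, adjusted p = 1.2e-08), from 3 of 25 and 45 of 67 nuclei. The protease gene htra1b had 0 and 6 UMIs in tbx5-marked sums against 71 and 81 in VAX2-marked sums (-3.44 ± 0.53, adjusted p = 1.0e-08). These low counts in tbx5-marked nuclei make the fitted ratios depend on few UMIs: those of nr2f5 lie in 3 nuclei, one of which held 5.

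The receptor gene EPHB3, whose product binds ephrin-B ligands, was the most abundant leading gene on this side, with 36 and 14 UMIs in tbx5-marked sums against 501 and 356 in VAX2-marked sums (-2.89 ± 0.21, adjusted p = 6.3e-39). Of the 50 UMIs in tbx5-marked nuclei, 23 came from 1 nucleus and 18 of the 25 nuclei had none. In barcodes with under 100 UMIs, which sample free RNA, EPHB3 was at 1170 CPM, above the 234 CPM of tbx5-marked nuclei. Other leading genes on this side were PGBD5, si:ch73-335l21.1, faim2b, ptk2aa, RARB (ENSABLG00000003924), rerglb and C20orf27 (ENSABLG00000015886), with log2 ratios from -3.13 to -2.26. RARB, a retinoic acid receptor, had 4 and 0 UMIs in tbx5-marked sums, all in 1 nucleus, against 28 and 23 UMIs in VAX2-marked sums. Symbols given with an identifier are shared by several rows of the gene table, and how the authors' counting divided reads among such copies is not known.

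At equal depth the expected shares kept their order, which choosing the genes from the same counts favours. A refit on counts thinned to 2000 UMIs called 6 of 1701 genes. Among the leading genes that it tested, 3 kept their call and 21 kept their direction without a call. Each nucleus of both arms had over 2000 UMIs, so the expected share with a UMI after thinning to 2000 UMIs was computed for all 25 and 67, and it kept the direction for the 15 leading genes of each side. ROBO1 would be seen in 67.9% of tbx5-marked and 8.52% of VAX2-marked nuclei, against 84% of tbx5-marked and 11.9% of VAX2-marked nuclei before thinning. It was seen in 7.68% of rod nuclei, which were not thinned and had a median depth of 1960 UMIs. SGSM2 would be seen in 75.5% of tbx5-marked and 9.81% of VAX2-marked nuclei, against 11.5% of rod nuclei. The thinned VAX2-marked shares of both genes were near the unthinned shares in rods. The 45 UMIs of ROBO1 and 55 UMIs of SGSM2 in that arm lay in 8 and 9 of the 67 nuclei. For cngb3.2 the shares were 80.03% of tbx5-marked and 14.7% of VAX2-marked nuclei, with 3.48% of rod nuclei. On the other side, PEA15 would be seen in 5.81% of tbx5-marked and 57.3% of VAX2-marked nuclei, with 16.03% of rod nuclei. EPHB3 would be seen in 15.8% of tbx5-marked and 77.1% of VAX2-marked nuclei, with 30.9% of rod nuclei. For nr2f5 the shares were 4.36% of tbx5-marked and 45.5% of VAX2-marked nuclei, with 11.3% of rod nuclei. The thinned tbx5-marked shares of these genes were below the unthinned shares of rods, a comparison that was not made at equal depth. Within each sublibrary all 30 leading genes also kept their direction, which choosing them from sums over the same nuclei favours. ROBO1 was at 3.02 in s1 and 3.58 in s2, and EPHB3 at -4.97 in s1 and -2.71 in s2 (log2 ratios of CPM). Sublibrary s1 held 8 tbx5-marked nuclei. Several lower genes, among them PEA15, ncanb and nr2f5, had 0 UMIs in these, so their ratios in s1 are upper bounds.

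**Figure D3:**
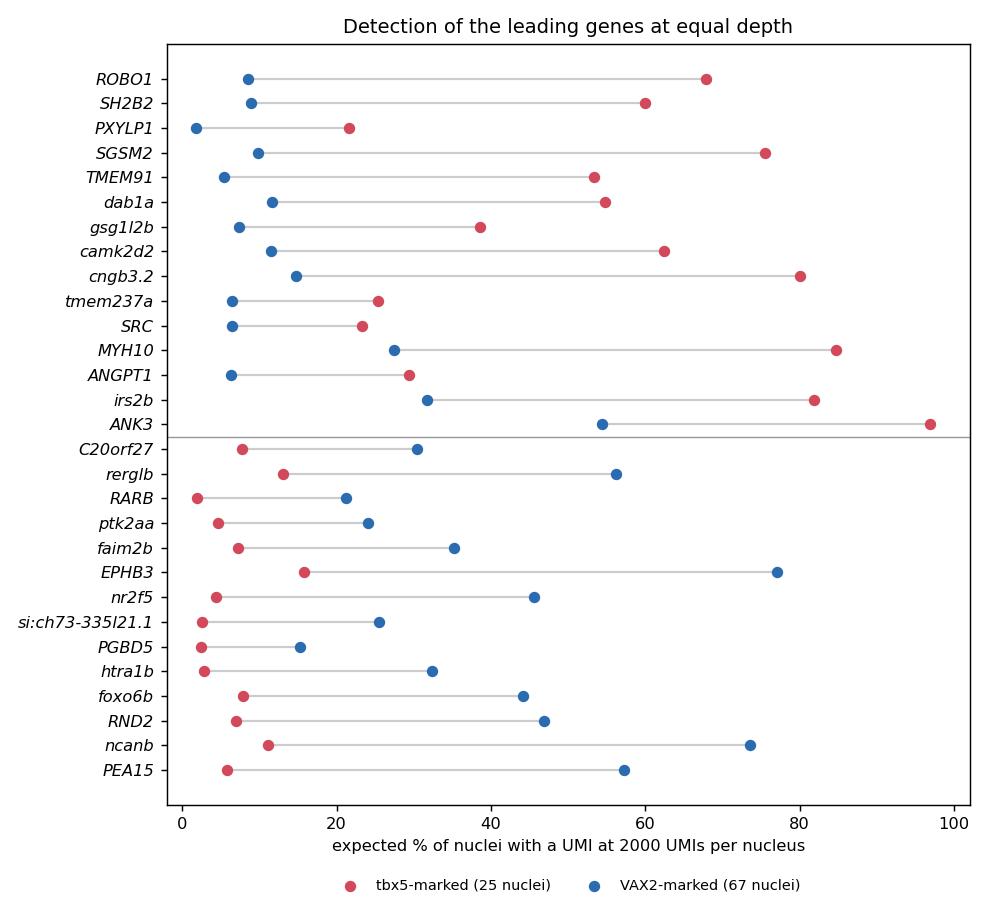
Expected percentage of nuclei with a UMI of 29 leading genes if every nucleus had 2000 UMIs, in tbx5-marked nuclei (red, 25) and VAX2-marked nuclei (blue, 67). The upper 15 genes have the red point on the right and the lower 14 the blue point, from SGSM2 at 75.5% of tbx5-marked against 9.81% of VAX2-marked nuclei to PGBD5 at 2.39% of tbx5-marked against 15.2% of VAX2-marked nuclei.

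The pathway lists were read against the shares of all genes that passed. Of the dorsoventral factors, tbx2b and meis2a had enough UMIs. The homeobox gene meis2a fell in tbx5-marked nuclei, with 62 and 51 UMIs against 414 and 565 UMIs in VAX2-marked sums (-1.87 ± 0.17, adjusted p = 2.7e-24). The T-box gene tbx2b, a dorsal factor in vertebrate retinas and a factor for sws1 cones in zebrafish, had 57 and 74 UMIs in tbx5-marked sums against 100 and 134 in VAX2-marked sums (0.40 ± 0.23, adjusted p = 0.43). It did not pass, which does not show it to be equal in the arms. Of the COUP factors only nr2f5 was tested.

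Of 14 ephrins and Eph receptors tested, 2 were higher, 4 lower and 8 did not pass, with a median log2 ratio of -0.75 beside -0.04 over all genes, of which 3.02% were higher and 4.6% lower. The list is small and nothing particular to it is read from these counts. The ligand gene efnb2a (ENSABLG00000016818), which encodes an ephrin-B2 and so a ligand of EphB receptors, had 67 and 103 UMIs in tbx5-marked sums against 93 and 113 in VAX2-marked sums (0.94 ± 0.22, adjusted p = 7.1e-04). EFNA5 (ENSABLG00000020467), an ephrin-A ligand, had 104 and 121 UMIs in tbx5-marked sums against 173 and 179 in VAX2-marked sums (0.59 ± 0.18, adjusted p = 0.023). On the lower side were EPHB3 and 3 genes that were not spread over nuclei. One of these, the receptor gene ephb2b, had 13 and 2 UMIs in tbx5-marked sums against 66 and 33 in VAX2-marked sums (-1.54 ± 0.48, adjusted p = 0.020), and epha4l (ENSABLG00000004734) and efna3b were at 0 in tbx5-marked nuclei with 23 and 26 UMIs from 4 and 5 VAX2-marked nuclei.

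Of 31 axon guidance genes, 6 were higher and 3 lower, beside 3.02% higher and 4.6% lower of all genes tested. The 5 higher genes that were spread over nuclei were ROBO1, ROBO2, dscama, sema3fb and NTNG2, and none of the 3 lower ones was, beside 2.1% and 1.42% of all genes tested that were spread over nuclei and higher or lower. ROBO2 (ENSABLG00000002065), a second Slit receptor, had 488 and 651 UMIs in tbx5-marked sums against 630 and 604 in VAX2-marked sums, a level seen in nearly every nucleus of both arms (1.11 ± 0.11, adjusted p = 2.1e-22). The adhesion receptor gene dscama (ENSABLG00000004002) had 176 and 254 UMIs in tbx5-marked sums against 170 and 220 in VAX2-marked sums (1.36 ± 0.15). The secreted semaphorin gene sema3fb had 152 and 208 UMIs in tbx5-marked sums against 186 and 248 in VAX2-marked sums (0.96 ± 0.16).

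The photoreceptor lists do not hold cngb3.2, whose name matched none of them, and are to be read against the 3.02% of all genes tested that were higher and the 4.6% that were lower. Of 20 photoreceptor fate factors 1 passed, esrrgb, an estrogen-related receptor gene, with 213 and 322 UMIs in tbx5-marked sums against 167 and 258 in VAX2-marked sums (1.57 ± 0.14, adjusted p = 3.0e-24). Of 21 phototransduction genes outside the gate 3 were higher and none lower, and only rcvrn2, a recoverin, was spread over nuclei (0.88 ± 0.26, adjusted p = 0.017). Of 31 outer segment and cilium genes only pcdh15a passed, at 0.64 ± 0.15. Of 8 visual cycle genes 3 were lower, of which only the retinol dehydrogenase gene rdh8b was spread over nuclei (-0.84 ± 0.23, adjusted p = 6.8e-03), and rpe65a, a pigment epithelium marker, was among the others.

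Synapse and channel lists held calls on both sides, beside 3.02% higher and 4.6% lower of all genes tested. Genes spread over nuclei were 2.1% (higher) and 1.42% (lower) of all genes tested. Of 39 ribbon synapse genes 3 were higher and 4 lower, and only the higher ones, UNC13B, DMD (ENSABLG00000018121) and CACNA2D4, were spread over nuclei. UNC13B, a priming factor of synaptic vesicles, had 56 and 73 UMIs in tbx5-marked sums against 58 and 39 in VAX2-marked sums (1.65 ± 0.28, adjusted p = 3.7e-07). Of 16 potassium and HCN channels, KCNMA1, the large-conductance calcium-activated channel, and KCNB2 (ENSABLG00000016325), a delayed rectifier, were higher, at 1.26 ± 0.19 and 0.53 ± 0.09, and kcnv2a was lower but not spread over nuclei. KCNB2 lost its call in nuclei with few transcripts of other types (adjusted p = 0.54).

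For the signalling lists, too, the background was 3.02% of all genes tested higher and 4.6% lower, and with lists this small no share was set apart from it. Of 11 BMP pathway genes 2 were higher and 1 lower, and only SMAD7, an inhibitory SMAD, was spread over nuclei (0.89 ± 0.26, adjusted p = 0.013). SMAD7 kept its direction but lost its call with DESeq2, with no block and in nuclei with few transcripts of other types. Of 9 retinoid pathway genes only RARB passed, and of 8 thyroid hormone genes only SLCO1C1, which was not spread over nuclei. None of 14 Wnt pathway genes, 20 clock genes or 3 immediate early and stress genes passed in edgeR's test or with DESeq2, and at an unadjusted p of 0.05 edgeR's counts were 2, 3 and 0. A gene that did not pass is not shown to be equal in the arms.

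The other cones, 79 tbx5-marked and 599 VAX2-marked nuclei with under 80% of their opsin UMIs from opn1sw1, mix several opsin types. Their opsin mix differed between the arms. The opsin gene opn1lw1 (ENSABLG00000000728) was at 156 and 122 CPM in tbx5-marked against 37.2 and 32.7 CPM in VAX2-marked sums. For opn1mw1 (ENSABLG00000007592) these values were 44.9 and 86.2 CPM against 231 and 219 CPM. Marker and opsin type therefore cannot be told apart in the ratios of other cones or in the interaction. In the other cones 137 of 12913 genes passed the same test (1.06%), 62 higher (0.48%) and 75 lower (0.581%). Of the 169 genes spread over nuclei in sws1 cones, 36 passed in the other cones too, all 36 with the same sign. A test of the difference itself, as an interaction of arm and cone kind, called 177 of 13073 genes (1.35%), with 27 positive (0.207%) and 150 negative (1.15%) differences, and 46 of the 169, of which 16 were higher and 30 lower in tbx5-marked sws1 cones. The interaction term came from 1 joint fit, so it differs somewhat from the subtraction of the separately fitted ratios, and its median over all genes was -0.31. The 177 calls became 13 of 13073 with no block and 47 of 10580 with at least 50 UMIs. They became 44 of 10652 with the limit on rod transcripts and 104 of 13051 without the 2 mixed barcodes. In nuclei with few transcripts of other types they became 21 of 7578. In 45 of the 46 the term pointed to the side called in sws1 cones, which choosing the genes by the sws1 test favours, and KCNB2 was the exception, with 0.53 in sws1 cones and 1.28 in other cones (difference -0.88, adjusted p = 2.0e-05).

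The genes shared with other cones included ncanb, at -3.57 in sws1 and -3.23 in other cones (difference adjusted p = 0.91), although its level was far lower in the other cones, with 18.9 and 27.3 CPM in tbx5-marked and 220 and 226 CPM in VAX2-marked sums. The genes nr2f5, at -3.03 in sws1 and -2.04 in other cones, and efnb2a, at 0.94 in both, did not pass the interaction test (adjusted p = 0.45 and 0.99). A difference that did not pass is not shown to be absent. For esrrgb the ratios were 1.57 in sws1 and 1.48 in other cones and the interaction term was -0.03, but in nuclei with few transcripts of other types the term was -1.70 (adjusted p = 2.3e-05). EPHB3 was lower in tbx5-marked nuclei of both kinds, with log2 ratios of -2.89 in sws1 and -1.995 in other cones and a difference of -1.06 (adjusted p = 2.9e-03) that did not pass in those nuclei (adjusted p = 0.91).

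PEA15 had the largest difference between cone kinds among the named genes spread over nuclei. Its log2 ratio was -0.06 in other cones, where it had 568 and 555 CPM in tbx5-marked and 595 and 596 CPM in VAX2-marked sums, against 42.1 CPM in tbx5-marked and 657 CPM in VAX2-marked sws1 cones. The difference was -3.99 (adjusted p = 1.1e-21) and -4.36 in nuclei with few transcripts of other types (adjusted p = 2.4e-12). The tbx5-marked sws1 cones were thus the low group, and the VAX2-marked sws1 cones were near the other cones.

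A further 8 of the 46 genes also passed the difference test in those nuclei, where 21 of 7578 genes did. FAT4, a giant cadherin, was at 154 CPM in tbx5-marked and 537 CPM in VAX2-marked sws1 cones, a log2 ratio of -1.77, against 0.55 in other cones. The homeobox genes meis2a and pbx1a, whose products are partners on DNA in vertebrates, were at -1.87 and -1.25 in sws1 cones, against -0.23 and 0.17 in other cones. The others were si:ch211-258f14.2, dab1a, KCNMA1, ADCY9 (ENSABLG00000012598) and KCNB2. The adenylyl cyclase gene ADCY9 was at 257 CPM in tbx5-marked and 73.0 CPM in VAX2-marked sws1 cones, a log2 ratio of 1.80, against -0.16 in other cones.

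**Figure D4:**
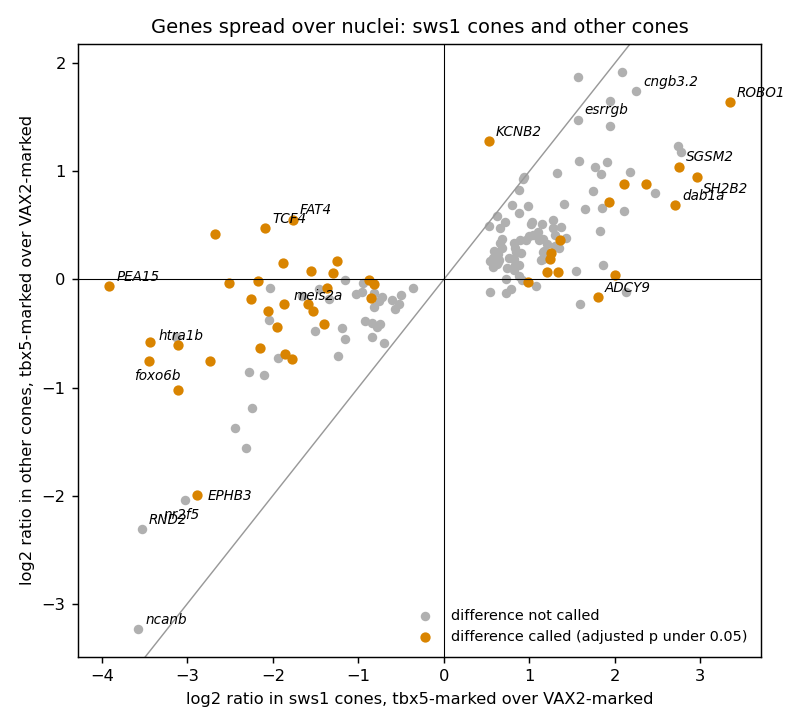
Fitted log2 ratios of tbx5-marked over VAX2-marked nuclei for the 169 genes spread over nuclei, in sws1 cones on the x axis and in other cones on the y axis, with the line of equal ratios in grey. Orange marks the 46 genes whose difference passed the interaction test: PEA15, at -3.91 in sws1 and -0.06 in other cones, lies on the zero line of the other cones, and ncanb lies near the line of equal ratios.

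The sws1 cones outside the arms played no part in choosing these genes. In the 66 nuclei with neither marker, the CPM of all 30 leading genes lay between those of the arms, and in the 27 double-marked nuclei those of 28 did, with RARB and ptk2aa above the VAX2-marked level. Choosing genes by the largest ratios between the arms favours such a place between them, so it is a description. The 59 higher and 48 lower genes of at least 1 log2 unit were then summed in each nucleus, and the share of the UMIs of all of them that came from the higher genes is called the tbx5-side share. It had a median of 90.1% in tbx5-marked nuclei (76.7% to 94.0%) and 37.2% in VAX2-marked nuclei (15.6% to 88.2%), which describes the choice of genes.

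In nuclei with neither marker the tbx5-side share ran across the whole range, from 17.7% to 92.5%, with a median of 67.7%. It was over 60% in 41 of the 66, under 40% in 14 and between in 11. The median was 80.03% in retina 1 and 64.2% in retina 2. Of these nuclei 46 came from sublibrary s1, with a median of 80.6%, and 20 from s2, with a median of 52.9%, and the part of the sublibrary was not tested. In double-marked nuclei the median was 74.8%, with 22 of 27 over 60%, and these were the deepest sws1 cones, at a median of 10018 UMIs, with a median of 11 UMIs of markers of other cell types, against 1 in each arm.

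The tbx5-side share had a wider range in VAX2-marked than in tbx5-marked nuclei. The panel genes were chosen from these same arms, so this is a description. VAX2-marked nuclei were more numerous and had fewer panel UMIs, at a median of 243 against 419 in tbx5-marked nuclei. The part of these in the range was not tested. A tbx5-side share over 60% was found in 13 of 67, against all 25 tbx5-marked nuclei. Of these 13, 5 were among the 19 nuclei with 1 VAX2 UMI and 8 among the 48 with more, and the medians of these subsets were 36.1% and 37.4%. VAX2 was at 220 CPM in barcodes with under 100 UMIs, against 551 CPM in VAX2-marked nuclei, and the part of free RNA in the marking was not tested. In the other cones the medians were 63.0% in tbx5-marked and 38.0% in VAX2-marked nuclei.

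**Figure D5:**
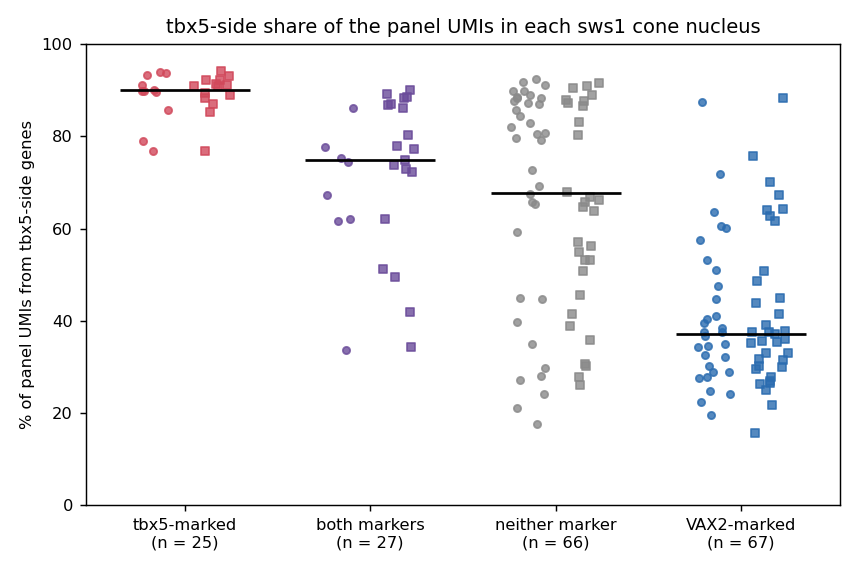
Tbx5-side share, the percentage of panel UMIs that came from the 59 genes higher in tbx5-marked nuclei, in each of the 185 sws1 cones, with circles for retina 1, squares for retina 2 and lines at the medians. The tbx5-marked nuclei sit between 76.7% and 94.0%, and the nuclei with neither marker spread from 17.7% to 92.5%.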

How the data were processed

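The authors' matrix holds raw UMI counts, per the file headers, with no normalization, from the Parse Evercode nuclei kit per the labels' protocols. The aligner, build and annotation were not given in the sources used here. Per its header, the barcode table gave the deposited transcript counts and retina name, and all 119839 totals matched the matrix. The sublibraries s1 and s2 were read from the barcode names. No first-round well was shared by the retina names, and no well combination was shared between sublibraries among members. No doublet caller was run: mixed barcodes were treated by the filters named in the text.

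UMI sums per arm and retina name were fitted with edgeR 4.0.16 (TMM, quasi-likelihood test, retina name as block because both arms come from the same retinas, genes with at least 20 UMIs, tbx5a, tbx5b and VAX2 left out, Benjamini-Hochberg adjustment). The interaction fit used 8 sums. SE is the ratio divided by the root of F. CPM is per 1000000 UMIs of the sum. A count of 0 was given a floor of 3 counts for bounds. Intervals and floors cover counting error alone. In a test on simulated data, with 4789 genes, edgeR called 78.5% of those changed by 2 log2 units. It called 94.5% of those changed by 4 and 0.130% of unchanged ones. The simulated counts had 1 dispersion for all genes, the 0.0257 of the main fit, and no difference between retinas. They thus follow the model of the test, which favours low rates of false calls. Whether these rates hold for the real counts was not tested. Nor was it tested where 1 nucleus held over 50% of the UMIs, as in 4 higher and 65 lower calls.

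Nuclei with few transcripts of other types had a rod sum of at most 10% of the cone sum, under 3 marker UMIs of other types and at most 3 times the median depth. Genes were to be named as the 15 on each side with the largest ratio, and list members that passed. The narrower set was added after the values were seen. The values of 1 leading gene are not reported here, though the counts include it. Members, lists and thresholds were chosen with earlier results of these data known, so directions already known, as of EPHB3, nr2f5 and efnb2a, are no independent support. DESeq2 1.42.0 and the other alternatives are described at the end.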

Additional observations from a re-analysis of the deposited data

Results flagged for a closer look

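The results listed here are genes spread over nuclei whose arm difference, tbx5-marked over VAX2-marked, differed between sws1 cones and other cones in edgeR's interaction test. Each value is the interaction term of 1 joint fit over 8 sums, positive where the ratio was higher in sws1 cones, and differs somewhat from the subtraction of the separately fitted ratios. The opsin mix of the other cones differed between the arms, so marker and opsin type cannot be told apart in these values. On the tbx5 side the difference was 1.95 for dab1a, 1.92 for SH2B2, 1.87 for ADCY9, 1.60 for SGSM2 and 1.56 for ROBO1. It was 1.40 for camk2d2, 1.13 for si:ch211-13k12.2, 1.10 for MYH10, 1.08 for irs2b and 1.02 for fut8b. Of these, dab1a and ADCY9 also passed in nuclei with few transcripts of other types.

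On the VAX2 side the difference was -3.99 for PEA15, -2.98 for htra1b, -2.85 for foxo6b, -2.70 for TCF4 and -2.66 for si:ch73-335l21.1. It was -2.62 for ptk2aa, -2.45 for FAT4, -2.23 for plppr5b, -2.18 for C20orf27 and -2.16 for UTRN. Of these, PEA15 and FAT4 also passed in nuclei with few transcripts of other types. TCF4, a bHLH factor, had 9 and 14 UMIs in tbx5-marked sums against 120 and 111 in VAX2-marked sums of sws1 cones, and a UMI in 66.4% of rod nuclei.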

How the results depend on the processing

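The count of 366 of 4803 genes was 71 of 2379 with DESeq2 and 146 of 4803 with no replicate block. It was 6 of 1701 after thinning to 2000 UMIs and 57 of 3771 with a stricter opsin gate. It was 225 of 3431 with a rod sum of at most 10% of the cone sum. With depth of at most 3 times the median it was 202 of 4254, and with under 3 UMIs of other types' markers 121 of 2901. Alternatives chosen after seeing the data gave 233 of 4341 without the 2 mixed barcodes and 161 of 2653 with the filters together. Genes spread over nuclei were 169 of 4803. Library totals, other UMI minimums, no filter, 1000 UMIs per nucleus and 2 marker UMIs gave 260 to 370. The 177 interaction calls of 13073 genes became 13 of 13073 with no replicate block and 47 of 10580 with at least 50 UMIs. They became 44 of 10652 with the rod limit, 104 of 13051 without the 2 barcodes and 21 of 7578 with the filters together. The median interaction over all genes was -0.31, and -0.19 with library totals. Cause was not tested.

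Over the 30 leading genes and all alternatives there were 500 values. Of these, 436 kept direction and, where a test was made, the call, 61 kept direction without a call, 3 moved and 0 reversed. The 436 include 28 ratios without retina 1 and 29 without retina 2, which had no test and could keep only their direction. The 3 values that moved were also such ratios. Part of this agreement was fixed in advance. The higher minimum depth per nucleus removed no nucleus of either arm. The genes were also chosen to pass without the 2 barcodes and to have the same sign in each retina name. DESeq2 did not call 10 of the 30, the fit with no block 5, the stricter opsin gate 11 and thinning 21. Leaving out a retina name leaves no residual degrees of freedom, so it gave ratios without a test and no count. In ratios of CPM, epha4l (ENSABLG00000004734) gave 0.0438 without retina 2 and -1.26 without retina 1, and SMOC1 0.74 without retina 1 and -2.78 without retina 2. The positive values and the -1.26 are upper bounds from the floor, at 0 tbx5-marked UMIs, so neither gene is shown to turn. The list gene nrxn3b passed although its ratio was 0.35 in retina 1 and -4.44 in retina 2, and gfra2b and FSTL4 also differed in sign between retinas, on at most 1 UMI per arm in 1 of them. Of list genes that did not pass, RARG was at -0.99 in retina 1 and 0.39 in retina 2, EPHA6 at 1.90 in retina 1 and at most -1.90 in retina 2, and efna2a at 3.85 in retina 1 and at most -0.84 in retina 2. With 25 tbx5-marked nuclei, genes with few UMIs could not be compared.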
